A study of Homo sapiens with 18 samples.

Results

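The proteasome subunit genes are the 48 genes, of 63241 in the deposited matrix, whose symbol is PSM followed by a letter from A to G and a number only. PSMA in these symbols means proteasome alpha subunit. It is unrelated to prostate-specific membrane antigen, which shares the abbreviation, is encoded by FOLH1 and is the target of the radioligand in the study's title. Counts of the 48 genes were read in LNCaP cells given 1 of 2 plant flavonoids and in untreated PC-3 cells. By role the members were 15 genes of the 20S core, 4 of the immunoproteasome and thymoproteasome, 9 of the 19S base, 8 of the 19S lid and 12 activators, inhibitors and assembly chaperones.

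The proteasome is the protease that degrades most ubiquitin-tagged proteins of the cell. Its 20S core is a barrel of alpha rings, which gate the entrance, and beta rings, which hold the catalytic subunits PSMB5 (chymotrypsin-like), PSMB6 (caspase-like) and PSMB7 (trypsin-like). The 19S particle caps the barrel: the lid removes ubiquitin, and the ATPases of the base unfold the substrate and feed it in. Interferon replaces the catalytic subunits by PSMB8, PSMB9 and PSMB10, giving the immunoproteasome, whose peptides are loaded on MHC class I. Genes of the constitutive complex are known to be controlled together, chiefly by the transcription factor NFE2L1, which is activated when proteasome activity falls short.

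LNCaP, a prostate cancer line taken from a lymph node metastasis, responds to androgen, whereas PC-3, taken from a bone metastasis, grows without it. The 6 groups of 3 poly(A) RNA libraries were LNCaP untreated, LNCaP with genistein at 10 µM, with baicalein at 10 µM, with genistein at 20 µM and with baicalein at 20 µM, each for 24 h, and PC-3 untreated. The labels name the controls untreated, while the protocol names DMSO, the vehicle, as the control. Both compounds have the same formula. They differ as isoflavone (genistein) and flavone (baicalein): the phenyl ring joins the core at another carbon, and the hydroxyl groups are placed differently. Whether the libraries of a group came from separate cultures is not stated, so every p-value reflects library-to-library spread alone, possibly technical.

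Library totals ran from 10013567 to 18445711 counts, and the 48 genes took a group mean of 0.594 to 0.781% of them. The mitochondrially encoded share was 12.5% ± 2.0 (SD, n = 3) with baicalein at 20 µM and 4.55 to 6.06% in the other group means. KLK3, which encodes prostate-specific antigen and marks LNCaP, measured 1359, 1488 and 1628 counts scaled to library size (CPM) in untreated LNCaP, 732, 697 and 678 with genistein at 20 µM, 148, 243 and 127 with baicalein at 20 µM and 1.28, 1.35 and 2.37 in PC-3. The sum of 6 LNCaP markers, KLK3 among them, was 3003 to 3362 CPM in untreated LNCaP and 1548 to 1667 with genistein at 20 µM. With baicalein at 20 µM it was 311 to 454 CPM, and in PC-3 363 to 399 CPM. That sum, unlike KLK3, therefore did not separate PC-3 from LNCaP with baicalein at 20 µM. The sum of 6 PC-3 markers was 3803 to 4173 CPM in PC-3 and at most 25.6 CPM in any LNCaP library. The 6 leukocyte markers never summed to more than 3.15 CPM. In bulk RNA, fewer cells with a transcript and less of it per cell cannot be told apart.

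Most members were well expressed and steady between libraries. Among the 46 with a mean of at least 5 CPM in some group, the middle coefficient of variation within groups was 8.17%. Per kb of transcript, the highest in untreated LNCaP were PSMB1, a structural beta subunit, at 291 ± 21.1 CPM per kb (SD, n = 3), PSMA7 of the alpha ring at 290 ± 22.2 and PSMB4, a structural beta subunit, at 280 ± 21.7. These neighbours in the order lay within each other's SD. PSMB3 followed at 215 ± 6.73 CPM per kb and PSMD8 of the lid at 188 ± 9.51. The catalytic PSMB7, PSMB6 and PSMB5 stood at 151 ± 13.7, 117 ± 4.47 and 111 ± 16.6 CPM per kb, and the last pair lay within their SDs. The chaperone PSMD5 was low at 2.82 ± 0.139 CPM per kb.

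The tissue-restricted members PSMA8 and PSMB11 were close to silent. PSMA8, the testis form of an alpha subunit, had 0 counts in all 15 LNCaP libraries, which allows at most 0.0148 CPM over them (3 counts, counting error only), and 2 counts in 1 PC-3 library. PSMB11, the catalytic subunit of the thymoproteasome, had 6 counts spread over 5 of the 18 libraries. Together with PSMB8 and PSMB9 in LNCaP, they fell under the filter on low counts. The tests below cover 44 members in LNCaP and 46 in the comparison of the lines. In the latter, PSMB8 and PSMB9 passed the filter only through PC-3.

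Counts of several members may be shared with near copies or overlapping genes, most of all those of PSMC1 and PSMA2. PSMC1, an ATPase of the base, had 12063 counts over the 18 libraries. Its processed pseudogene PSMC1P1 had 45661, or 73.1 to 81.1% of both in every library. How reads that fit both were divided is not given in the sources used here. The alpha ring subunit PSMA2 had 26665 counts, and AC010132.3, a protein-coding gene that overlaps 14.6% of its exon bases on the same strand, had 21985. On the opposite strand NRDE2 covers 75.8% of the exon bases of PSMC1. The NEBNext Ultra kit, as named in the labels, does not mark strand, so reads of such pairs cannot be told apart. The same holds for 19.5% of the exon bases of the ATPase PSMC5 (FTSJ3, 22585 counts against 42978), 13.9% of PSMG2 (CEP76, 4797 against 12413) and 13.3% of PSMG4 (SLC22A23, 13414 against 3517). On the same strand AL121594.1 overlaps 14.1% of the alpha subunit PSMA6 (3924 against 48641) and AC040162.1 overlaps 34.8% of PSMB10 (936 against 3121).

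**Figure D1:**
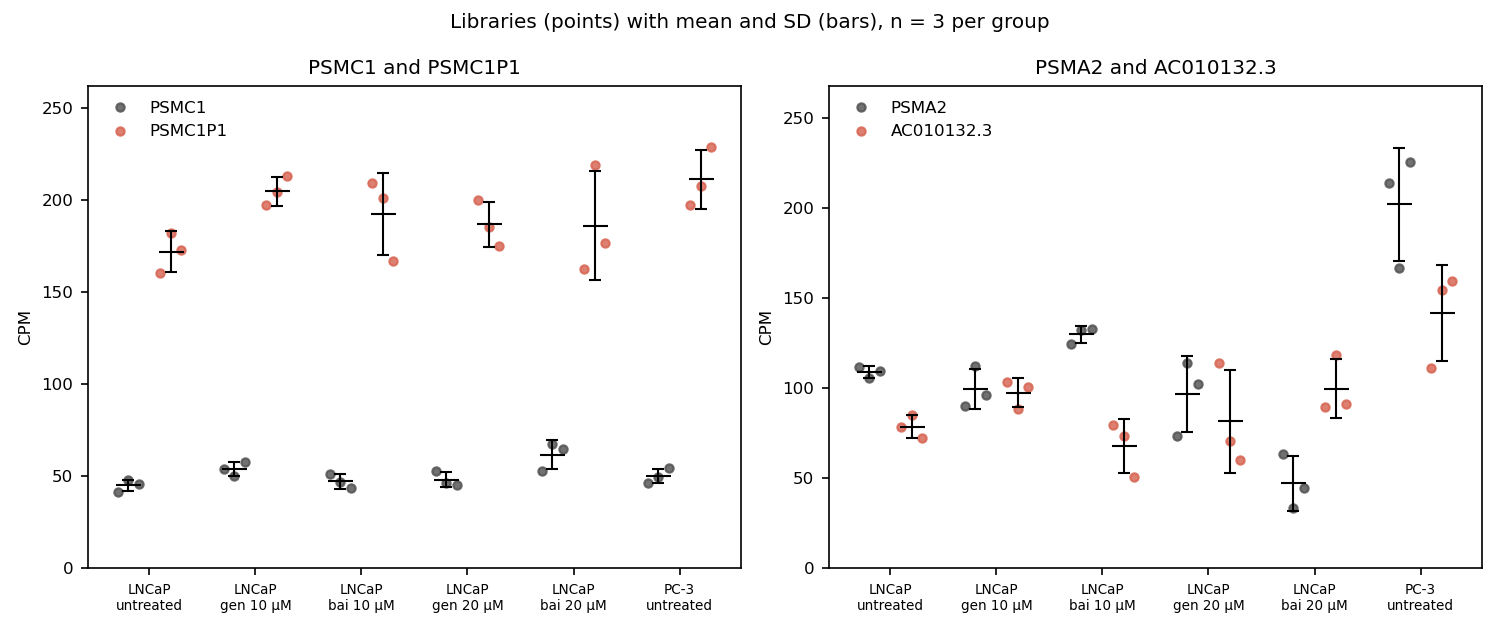
CPM of PSMC1 with its pseudogene PSMC1P1 (left) and of PSMA2 with the overlapping gene AC010132.3 (right) in each library (points), with mean and SD (bars, n = 3); gen is genistein and bai is baicalein. PSMC1P1 lies above PSMC1 in every library, and with baicalein at 20 µM PSMA2 is low (33.7 to 63.6 CPM) while AC010132.3 lies between 89.4 and 119 CPM.

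In groups where a member's mean was at least 5 CPM, 3 members varied more than 2-fold between libraries of 1 group. These were PSMD12 (up to 2.31-fold), PSME3 (2.23-fold) and PSMA3 (2.22-fold). PSMD12 of the lid, PSMA3 of the alpha ring and the chaperone PSMD10 had the same highest library in 5 of 6 groups. In 6 of 6 groups that of PSMD12 was also the library in which the tenth of genes with the lowest GC content was highest. With baicalein at 20 µM, replicate 1 stood 0.49 above its group's mean for those low-GC genes and 0.52 for PSMD12 (log2), while replicate 2 stood at -0.52 and -0.69. Some values are also given with the GC and length trend removed.

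At 10 µM neither flavonoid gave a called change in any member (edgeR quasi-likelihood F test, Benjamini-Hochberg adjusted over 16985 genes, called at an adjusted p under 0.05). With genistein, 0 of 44 members were called, beside 0.112% of all tested genes (0.0353% higher and 0.0765% lower), and with baicalein 0 of 44, beside 0.4% (0.0883% higher and 0.312% lower). Taking p without adjustment, 9 of 44 members per drug were under 0.05, beside 1458 of 16985 genes with genistein and 1907 with baicalein, all 9 with a log2 fold change above 0, and DESeq2 also called 0 of them at either drug. The small differences leaned upward: 39 of 44 log2 fold changes were above 0 with genistein (median 0.15, against 0.03 over all genes) and 38 of 44 with baicalein (median 0.20, against 0.03). Libraries of the groups did not overlap for 19 members with genistein, beside 23.5% of all genes, and for 8 with baicalein, beside 17.8%.

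The sum of the 48 members shows the same small step. It was 5941, 6250 and 6109 CPM in the untreated libraries, 6445, 6507 and 6573 with genistein at 10 µM, and 6844, 6579 and 6358 with baicalein at 10 µM. All 6 treated libraries lay above all 3 controls on this scale. As an unscaled share of library totals, baicalein at 10 µM (0.7645, 0.6778 and 0.6467%) overlapped the controls (0.6283, 0.6816 and 0.6566%). Genistein at 10 µM (0.6866, 0.7265 and 0.7339%) did not. Members with the lowest p with genistein were PSMD1, a base scaffold subunit (log2 fold change 0.31 ± 0.11 SE, adjusted p = 0.478), and the ATPase PSMC2 (0.26, adjusted p = 0.484). With baicalein they were the structural beta subunit PSMB2 (0.43, adjusted p = 0.204) and the chaperone PSMD9 (0.39, adjusted p = 0.268). The 95% interval lay within 1 on the log2 scale for 42 of 44 members with each drug, PSMD12 and PSME3 being the exceptions.

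Genistein at 20 µM raised 2 of 44 members, and lowered 0, beside 8.31% of all tested genes called higher, 8.12% lower and 16.4% in either direction. Libraries of the groups did not overlap for 14 members, beside 39.7% of all genes. PSMA5, an alpha ring subunit, measured 163, 186 and 178 CPM untreated and 223, 208 and 208 CPM with genistein (log2 fold change 0.34 ± 0.10 SE, adjusted p = 0.0307). PSMD9, a chaperone of base assembly, measured 44.7, 47.4 and 47.2 CPM untreated and 64.2, 56.5 and 59.5 CPM with genistein (0.43 ± 0.13, adjusted p = 0.0378). Neither gene's groups overlapped, yet both calls are marginal. Each was lost on leaving out any of the 6 libraries (adjusted p up to 0.164 and 0.16), and that of PSMA5 also with the GC and length trend removed (0.27, adjusted p = 0.59). With that trend removed the call of PSMD9 was kept (0.45, adjusted p = 0.00362). Over all members, 35 of 44 log2 fold changes were above 0 (median 0.14, against 0.05 over all genes).

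Neither the catalytic subunits nor the activators passed the test with genistein at 20 µM. The chymotrypsin-like PSMB5 was at 179, 156 and 165 CPM against 140, 167 and 125 CPM (log2 fold change 0.27, adjusted p = 0.262), with overlap. The trypsin-like PSMB7 was at 185, 175 and 171 CPM against 133, 159 and 151 CPM untreated (adjusted p = 0.0766). PSME1, a subunit of the activator PA28 that opens the core's gate, was at 82.7, 83.2 and 75.0 CPM against 57.2, 66.2 and 74.6 (0.34, adjusted p = 0.0581), and it was called with the GC and length trend removed (0.25, adjusted p = 0.0472). In both genes every treated library stood above every control, for PSME1 by a narrow gap. PSME3, the nuclear activator PA28 gamma, was at 74.4, 57.5 and 127 CPM against 171, 208 and 112 CPM, and its groups overlapped (log2 fold change -0.85, adjusted p = 0.192).

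With baicalein at 20 µM members were called in both directions, at a smaller share than all genes. Of 44 members, 12 rose and 7 fell, which is beside 29.4% and 27.8% of all tested genes, and 57.2% in either direction. The members' share was 43.2%, below that of all genes. The rises were led by the lid subunit PSMD12 and the falls by the activator PSME3. The median log2 fold change was 0.13, against 0.04 over all genes. Libraries did not overlap for 19 members, beside 60.6% of all genes. Without the mitochondrially encoded genes 18 members were called, 11 higher and 7 lower.

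**Figure D2:**
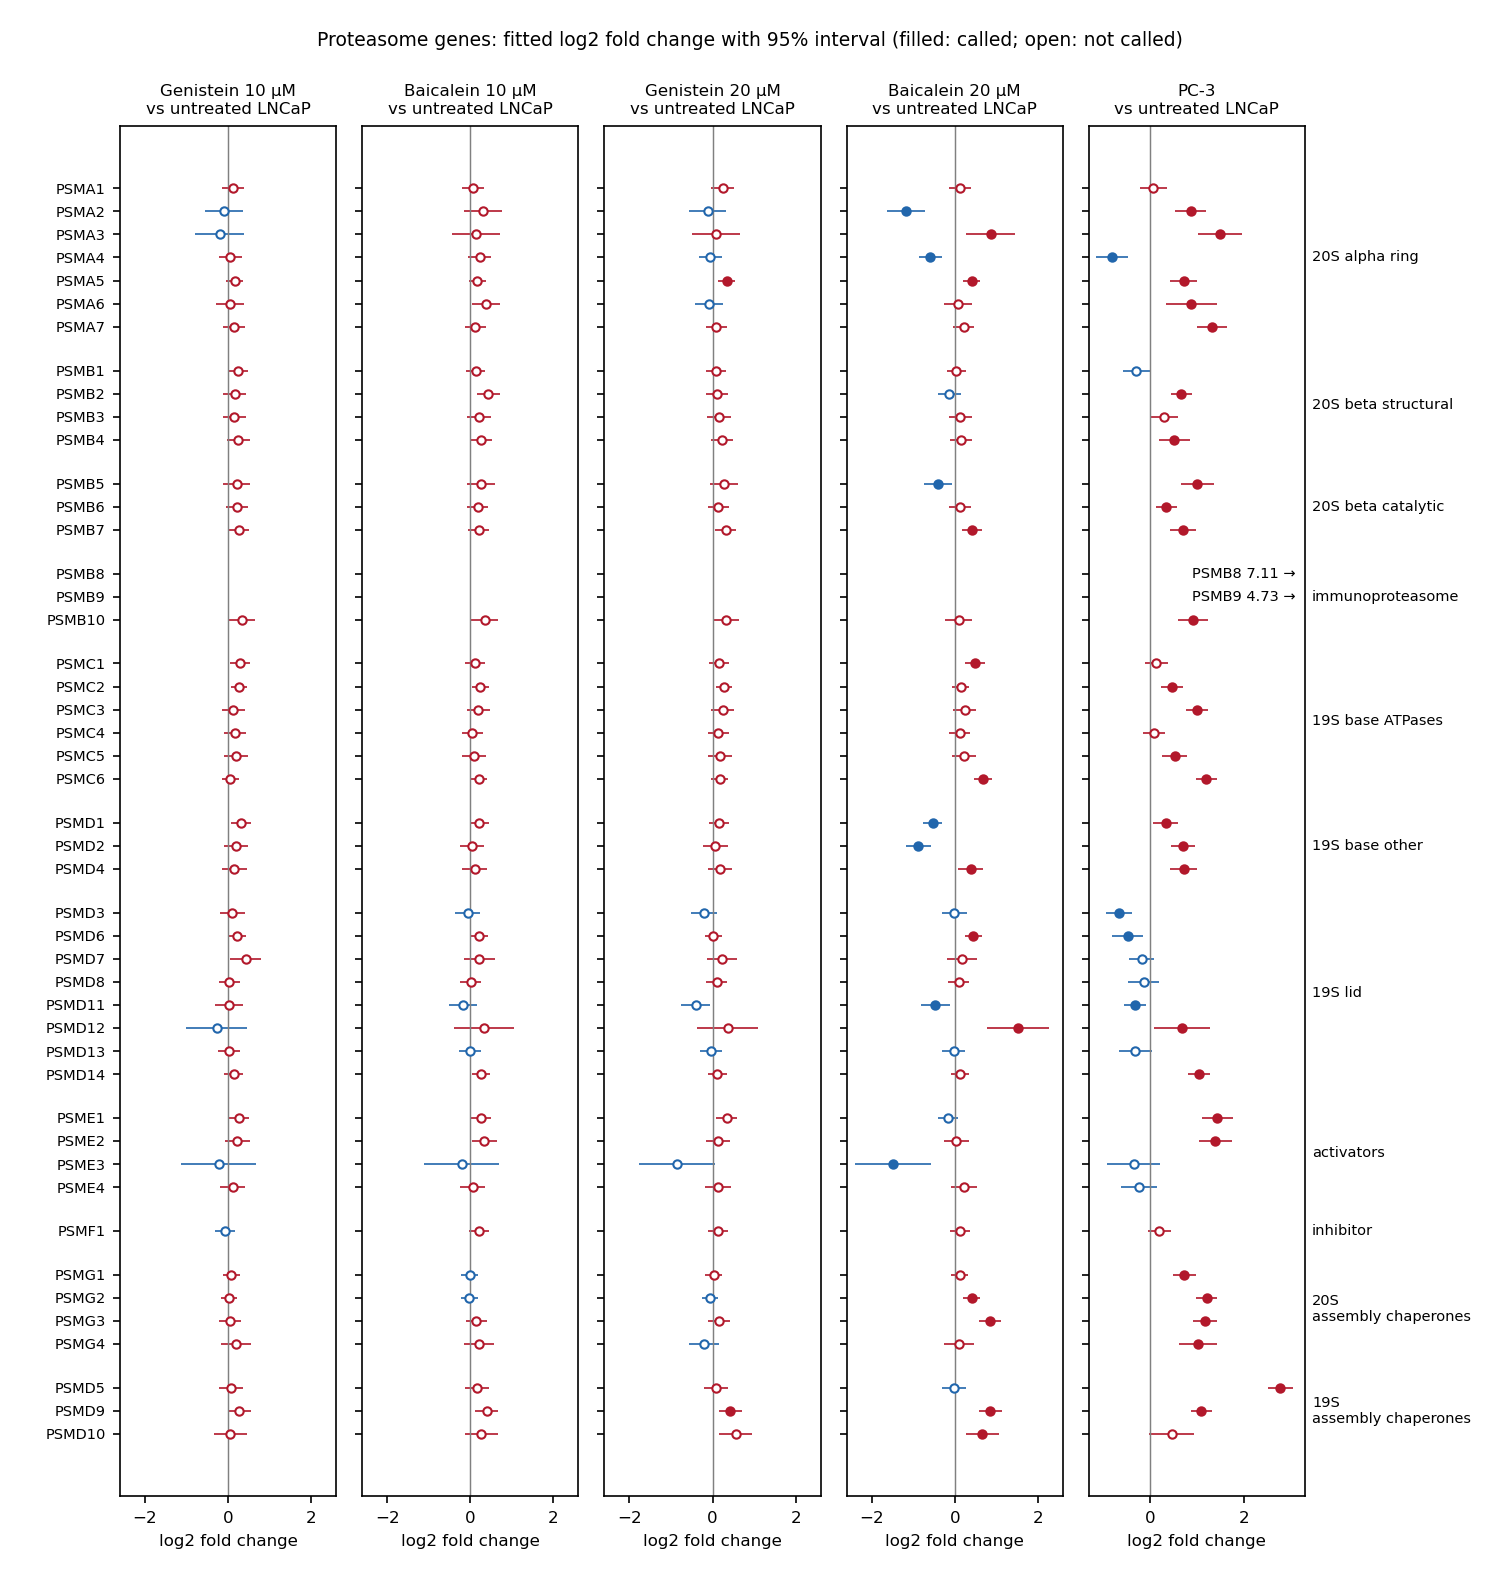
Fitted log2 fold change against untreated LNCaP (horizontal axis) of each tested member (rows, grouped by role) for the 4 drug groups and PC-3, with 95% intervals; red is above 0, blue below, filled points are called. The 10 µM columns hold no filled point, baicalein at 20 µM has 12 called rises and 7 called falls, and PC-3 has most points on the right, with PSMB8 (7.11) and PSMB9 (4.73) beyond the axis.

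In the alpha ring, 2 of 7 tested members rose and 2 fell with baicalein at 20 µM, beside 29.4% and 27.8% of all tested genes. PSMA3 measured 382, 172 and 272 CPM, against 191, 127 and 147 CPM untreated. Its lowest treated library lay under the highest control (log2 fold change 0.87 ± 0.27 SE, adjusted p = 0.0148). The value was 0.50 with the GC and length trend removed, and the call was lost without baicalein replicate 1 (0.55, adjusted p = 0.0848) or without untreated replicate 2 (adjusted p = 0.0686) or 3 (adjusted p = 0.0514). PSMA5 measured 208, 249.1 and 223 CPM against 163, 186 and 178 (0.41 ± 0.10, adjusted p = 0.00279; with the GC and length trend removed 0.31, adjusted p = 0.401).

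PSMA2 and PSMA4 were the falling alpha subunits. PSMA2 measured 63.6, 33.7 and 44.4 CPM against 112, 106 and 110 CPM untreated (-1.17 ± 0.21, adjusted p = 0.000428). With the GC and length trend removed it was at -1.54 (adjusted p = 1.63e-06). Added to the overlapping gene AC010132.3, an alternative chosen after the data were seen, it was at -0.31 (adjusted p = 0.0111), so the size of the fall depends on how reads of the pair are counted. PSMA4 measured 171, 160 and 157 CPM against 245, 258 and 252 CPM (-0.59 ± 0.13, adjusted p = 0.00161), with tight and clearly separate groups.

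The catalytic subunits of the core went different ways. PSMB5, the chymotrypsin-like subunit that proteasome inhibitors such as bortezomib bind, measured 101, 107 and 109 CPM with baicalein at 20 µM and 140, 167 and 125 CPM untreated (-0.40 ± 0.15, adjusted p = 0.0395). All treated libraries were below all controls. The call was lost without untreated replicate 1 or 2 or without any of the treated libraries (adjusted p 0.066 to 0.138). PSMB7 measured 168, 205 and 201 CPM against 133, 159 and 151 (0.41 ± 0.11, adjusted p = 0.00775), again with no overlap. PSMB6 was at 92.2, 110 and 116 CPM against 99.0, 96.8 and 104 CPM (0.12, 95% interval -0.14 to 0.39, adjusted p = 0.398). None of the 4 structural beta subunits was called (log2 fold changes -0.13 to 0.15).

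Among the 9 base genes, 3 rose and 2 fell with baicalein at 20 µM, beside 29.4% and 27.8% of all tested genes. The ATPase PSMC6 measured 156, 129 and 144 CPM against 95.4, 91.2 and 89.4 CPM (0.68 ± 0.10, adjusted p = 6.75e-05). With the GC and length trend removed it was at 0.37 (adjusted p = 0.107). PSMC1 measured 52.8, 67.5 and 64.9 CPM against 41.6, 47.7 and 45.6 (0.50 ± 0.11, adjusted p = 0.00218). Added to its pseudogene it was no longer called (0.23, adjusted p = 0.116). PSMD4, a ubiquitin receptor, measured 181, 252 and 209 CPM against 161, 166 and 178 (0.38 ± 0.14, adjusted p = 0.0285). Its call was lost without any 1 of the untreated replicates or without baicalein replicate 2 or 3 (adjusted p up to 0.113).

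Both large scaffold subunits of the base fell. PSMD2 measured 119, 177 and 156 CPM with baicalein at 20 µM against 265, 300 and 285 CPM untreated (-0.87 ± 0.14, adjusted p = 0.000134). PSMD1 measured 96.0, 93.2 and 97.4 CPM against 130, 158 and 139 (-0.53 ± 0.11, adjusted p = 0.000976). Neither pair of groups overlapped, and both calls were kept in every alternative run.

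In the lid, 2 of 8 members rose and 1 fell, beside 29.4% and 27.8% of all tested genes. PSMD12 measured 705, 305 and 554 CPM with baicalein at 20 µM and 244, 146 and 169 CPM untreated, the widest rise among the tested members (1.53 ± 0.34, adjusted p = 0.00206; with the GC and length trend removed 1.35). Its lowest treated library was above the highest control despite the spread. PSMD6 measured 168, 185 and 181 CPM against 125, 141 and 136 (0.45 ± 0.10, adjusted p = 0.00133). PSMD11 measured 115, 143 and 100 CPM against 156, 182 and 169 (-0.46 ± 0.16, adjusted p = 0.0239). The PSMD11 call was lost without untreated replicate 2 (adjusted p = 0.0628), without baicalein replicate 1 (0.056) or 3 (0.102), and with the GC and length trend removed (0.0569). PSMD14, the subunit that cuts off the ubiquitin chain, was at 147, 127 and 129 CPM against 132, 127 and 121 CPM (0.13, 95% interval -0.10 to 0.35).

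**Figure D3:**
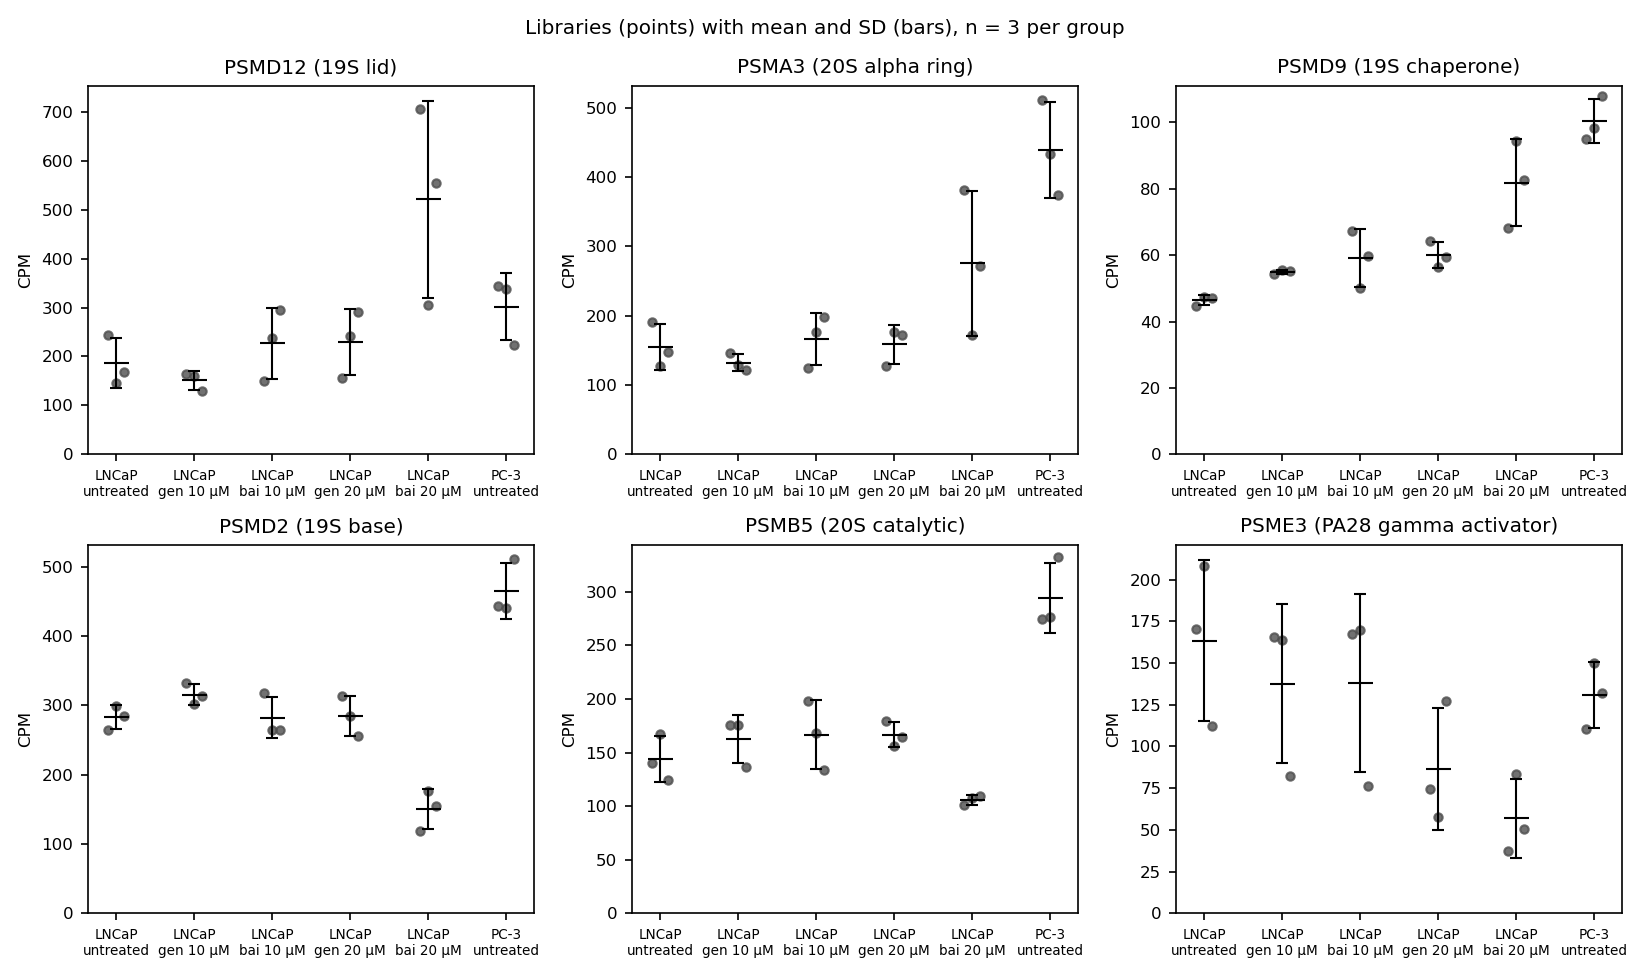
CPM of 6 members in each library (points), with mean and SD (bars, n = 3), in the 5 LNCaP groups and PC-3; gen is genistein and bai is baicalein. With baicalein at 20 µM, PSMD12 (305 to 705 CPM) and PSMD9 lie above untreated LNCaP, PSMA3 overlaps it, and PSMD2, PSMB5 (101 to 109 CPM) and PSME3 lie below it.

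PSME3 was the only called member among the activators and the inhibitor. It measured 37.4, 83.3 and 50.4 CPM with baicalein at 20 µM and 171, 208 and 112 CPM untreated (-1.48 ± 0.43, adjusted p = 0.00963), with no overlap but a wide spread in both groups. PSME1 and PSME2, which together form the interferon-induced PA28, were at -0.17 (95% interval -0.41 to 0.08) and 0.04 (-0.26 to 0.33). PSME4, the activator PA200, was at 89.9, 98.5 and 93.9 CPM against 76.6, 98.9 and 71.6 CPM. PSMF1, the inhibitor PI31, was at 74.5, 79.2 and 87.3 CPM against 72.1, 76.0 and 79.6 CPM. Neither passed the test (0.23, adjusted p = 0.184, and 0.12, adjusted p = 0.373), though PSMF1 was called with the GC and length trend removed (0.25, adjusted p = 0.0381).

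Of the assembly chaperones, 4 of 7 rose with baicalein at 20 µM and 0 fell, beside 29.4% and 27.8% of all tested genes. PSMG3, which helps to build the alpha ring, measured 43.6, 61.7 and 50.2 CPM against 27.4, 31.0 and 30.3 CPM (0.85 ± 0.12, adjusted p = 5.67e-05). PSMD9 measured 68.3, 94.5 and 82.8 CPM against 44.7, 47.4 and 47.2 (0.86 ± 0.13, adjusted p = 9.38e-05). The oncoprotein gankyrin, PSMD10, measured 251, 170 and 192 CPM against 160, 110 and 127 CPM (0.67 ± 0.18, adjusted p = 0.00732; with the GC and length trend removed 0.37). PSMG2, the partner of PSMG1, measured 56.0, 57.5 and 55.7 CPM against 41.7, 45.9 and 43.6 (0.41 ± 0.09, adjusted p = 0.00205). In each of these 4 genes every treated library was above every control.

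The isomers were compared directly at matched doses, 1 comparison at 10 µM and 1 at 20 µM, each adjusted over all tested genes. At 10 µM, 0 of 44 members differed, beside 0.00589% of all tested genes. DESeq2 also called 0, and 3 of 44 members had an unadjusted p under 0.05, beside 1312 of 16985 genes. Libraries did not overlap for 5 members, beside 15% of all genes. The 95% interval of the difference lay within 1 on the log2 scale for 43 of 44 members, and within 0.5 for 34. For PSMB5 the difference, genistein minus baicalein, was -0.06 (95% interval -0.39 to 0.28).

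At 20 µM the isomers differed in 14 of 44 members, 6 higher and 8 lower with genistein, beside 25.4% and 23.3% of all tested genes and 48.7% in either direction. Libraries did not overlap for 12 members, beside 52.9% of all genes. Higher with genistein were PSMA2 (1.05 ± 0.21; 0.30 when summed with AC010132.3), PSMD2 (0.94 ± 0.14), PSMD1 (0.69 ± 0.11), PSMB5 (0.67 ± 0.15), PSMA4 (0.54 ± 0.13) and PSME1 (0.51 ± 0.11). PSMB5 was at 179, 156 and 165 CPM with genistein and 101, 107 and 109 CPM with baicalein (adjusted p = 0.00302), and this call held under all alternatives run. PSMD2 was at 314, 285 and 256 CPM against 119, 177 and 156 CPM (adjusted p = 0.000107).

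Lower with genistein than with baicalein at 20 µM were the lid subunits PSMD12 (-1.17 ± 0.34, adjusted p = 0.0127) and PSMD6 (-0.43 ± 0.10), the alpha subunit PSMA3 (-0.78 ± 0.27), the ATPases PSMC6 (-0.51 ± 0.10) and PSMC1 (-0.34 ± 0.11), and the chaperones PSMG3 (-0.69 ± 0.12), PSMG2 (-0.46 ± 0.09) and PSMD9 (-0.43 ± 0.13). Some of these calls were lost when a library was left out. Without baicalein replicate 1, PSMD12 was at -0.87 (adjusted p = 0.0605) and PSMA3 at -0.46 (0.161). PSMA3 was also lost without baicalein replicate 3 (0.0595) or genistein replicate 1 (0.0992) or 2 (0.0502). PSMD9 was lost without genistein replicate 2 (-0.37, 0.0615) or baicalein replicate 2 (-0.32, 0.0561). PSMC1 was lost without replicate 2 or 3 of either drug (-0.28 to -0.30, adjusted p 0.0737 to 0.0875) and when summed with its pseudogene (-0.06, adjusted p = 0.72), and PSMC6 with the GC and length trend removed (-0.34, adjusted p = 0.155). PSMB10 was not called (0.23, adjusted p = 0.229), but was without baicalein replicate 2 (0.42, adjusted p = 0.0212). For PSMB6, PSMB7 and PSMD14 no difference was detected, with 95% intervals of -0.24 to 0.28, -0.34 to 0.15 and -0.23 to 0.22.

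PC-3 expressed most proteasome genes at a higher level than LNCaP. Of 46 tested members 30 were higher and 4 lower, beside 37% and 37.9% of all tested genes and 74.9% in either direction (17259 genes, 6 untreated libraries, same test). The 30 include PSMB8 and PSMB9. These passed the filter on low counts only through PC-3, where they are high, so their calls are no independent support. The median log2 difference, PC-3 minus LNCaP, was 0.69, against -0.02 over all genes. With the GC and length trend removed, which moved the median of all genes by -0.10, the split was 26 higher and 8 lower. Shares of all genes by direction in that setting are not given here, so nothing is read from this split. Over all alternatives 12455 to 14950 genes were called, against 12924 in the main fit. The member sum was 8549, 8679 and 9625 CPM in PC-3 and 5941, 6250 and 6109 CPM in untreated LNCaP. Groups did not overlap for 36 members, beside 78.4% of all genes.

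In the core, 10 of 14 tested members were higher in PC-3 and 1 lower, beside 37% and 37.9% of all tested genes. PSMA3 stood at 512, 433 and 374 CPM against 191, 127 and 147 CPM (1.48 ± 0.20, adjusted p = 0.000394). PSMA7 stood at 652, 692 and 856 CPM against 264, 299 and 304 (1.32 ± 0.13, adjusted p = 9.09e-05). All 3 catalytic subunits were higher, PSMB5 most, at 274, 276 and 332 CPM against 140, 167 and 125 (1.01 ± 0.15, adjusted p = 0.00058). PSMB7 followed at 0.70 ± 0.12 (adjusted p = 0.00118; 0.43 with the GC and length trend removed).

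PSMB6 stood at 135, 124 and 130 CPM against 99.0, 96.8 and 104 CPM (0.35 ± 0.10, adjusted p = 0.0128). Its call was lost with that trend removed (0.07, adjusted p = 0.545) and without untreated LNCaP replicate 2 (adjusted p = 0.0525). PSMA2 (0.87), PSMA6 (0.88), PSMA5 (0.72), PSMB2 (0.67) and PSMB4 (0.52) were the other higher core genes. Of these PSMA6 was lost with the trend removed (0.43, adjusted p = 0.109), and PSMB4 was then at 0.28. PSMA4 was the exception in the core, at 154, 120 and 164 CPM in PC-3 against 245, 258 and 252 CPM (-0.81 ± 0.14, adjusted p = 0.00149).

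Among the tested members, PSMB8 and PSMB9 of the immunoproteasome showed the widest gaps between the lines, and PSMB10 did not share in this. PSMB8 and PSMB9 entered the test only through PC-3, so their adjusted p-values are given as description. PSMB8, the replacement of PSMB5, stood at 31.8, 38.5 and 50.9 CPM in PC-3 and at 0.513, 0.245 and 0.0575 CPM in untreated LNCaP, from 274, 484 and 450 counts against 10, 4 and 1 (7.11 ± 0.46, adjusted p = 1.42e-05). PSMB9, the replacement of PSMB6, stood at 11.8, 11.9 and 13.5 CPM against 0.359, 0.551 and 0.460 CPM, from 102, 149 and 119 counts against 7, 9 and 8 (4.73 ± 0.21, adjusted p = 2.45e-06). PSMB10, the replacement of PSMB7, was present in both lines, at 19.3, 18.39 and 23.3 CPM against 10.4, 10.1 and 11.2 CPM (0.92 ± 0.13, adjusted p = 0.00062; 0.52 with the GC and length trend removed). The part of the overlapping gene AC040162.1 in that difference was not tested.

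Set against its constitutive partner per kb of transcript, PSMB8 was 15.7% ± 2.17 (SD, n = 3) of PSMB5 in PC-3 and 0.214% ± 0.188 in untreated LNCaP. PSMB9 was 10.4% ± 0.856 of PSMB6 in PC-3 and 0.498% ± 0.113 in LNCaP. PSMB10 was 6.72% ± 0.56 of PSMB7 in PC-3 and 5.79% ± 0.616 in LNCaP, a narrow gap beside those of the other pairs. In PC-3 the constitutive forms stayed the more abundant transcripts of each pair.

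The drugs left the immunoproteasome genes of LNCaP low. PSMB8 had 1 to 11 counts in every LNCaP library and PSMB9 4 to 17. In the fit without the filter on low counts neither was called in any drug comparison. Against untreated, the smallest adjusted p was 0.451 for PSMB8, with baicalein at 20 µM (0.556, 0.643 and 0.307 CPM), and 0.455 for PSMB9, with baicalein at 10 µM (1.44, 0.932 and 0.529 CPM). PSMB10 was tested and not called with either drug (log2 fold changes 0.09 to 0.35). With both drugs at 10 µM and genistein at 20 µM its unadjusted p was under 0.05 and its libraries lay above all controls. Non-overlap held there for 23.5% (genistein 10 µM), 17.8% (baicalein 10 µM) and 39.7% (genistein 20 µM) of all genes. With the GC and length trend removed it was at 0.28 with genistein at 20 µM (adjusted p = 0.0635). Its libraries read 11.7, 13.1 and 14.3 CPM with genistein at 10 µM, 12.9, 12.9 and 13.3 with baicalein at 10 µM, 13.8, 12.6 and 11.7 with genistein at 20 µM and 8.53, 13.7 and 10.6 with baicalein at 20 µM.

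**Figure D4:**
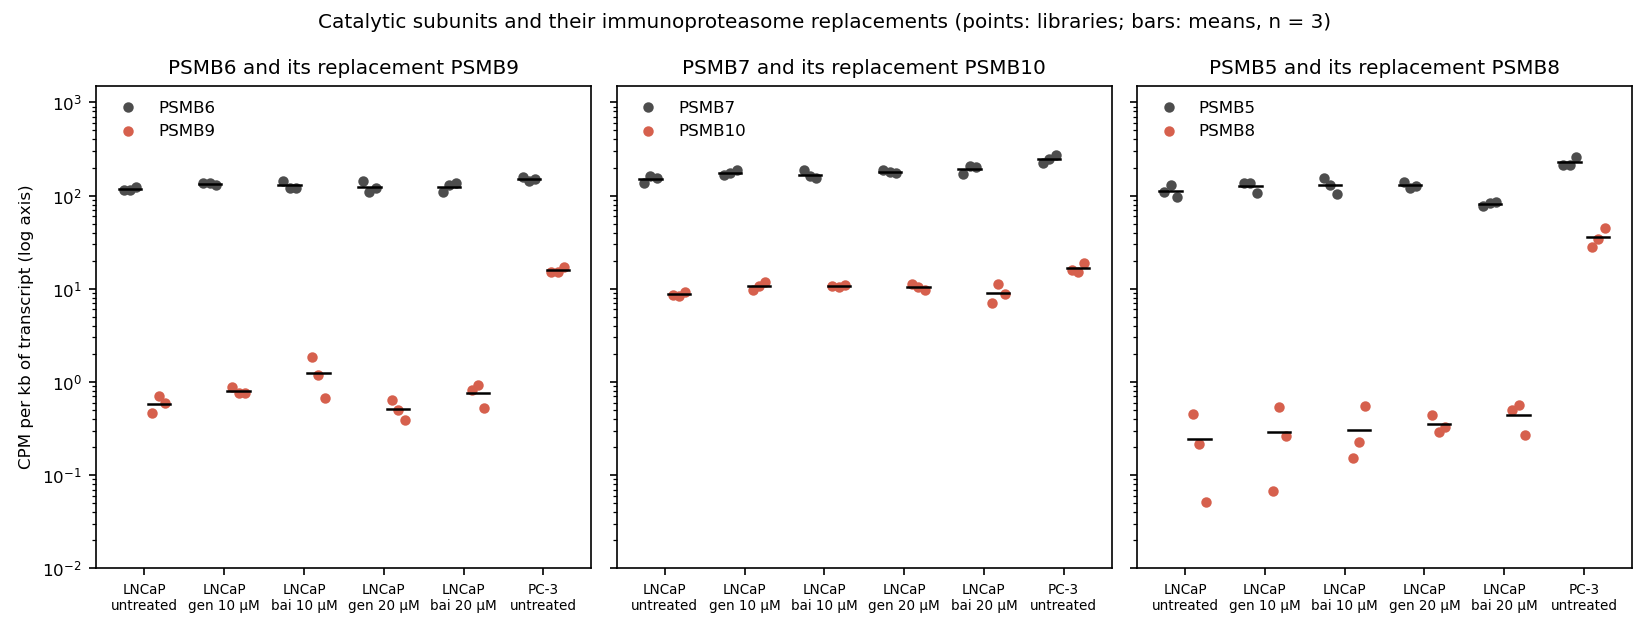
CPM per kb of transcript (log axis) of each constitutive catalytic subunit (grey) and its immunoproteasome replacement (red) in every library (points; bars are means, n = 3); gen is genistein and bai is baicalein. PSMB8 and PSMB9 lie at no more than 1.28% of their partners in all LNCaP libraries and average 35.9 and 15.8 CPM per kb in PC-3, while PSMB10 averages 16.7 CPM per kb in PC-3 and 8.68 in untreated LNCaP.

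Promoters of the members were searched for the letters GAAANNGAAA, the core of the interferon-stimulated response element that IRF factors bind, on both strands, in the 300 bases from 250 before to 50 after each RefSeq start site (GRCh38.p14). The table held 51 promoters of 42 members. The motif was in 7 of these (13.7%) and in 3.57% of all 35116 promoters. The 7 windows are shown because they hold 4 genes of the interferon-inducible set, PSMB8, PSMB10, PSME1 and PSME2. Capitals mark the match, and in PSME1 and PSMB8 the match lies on the other strand of the gene.
PSMB10, chr16:67936851-67936896, minus strand: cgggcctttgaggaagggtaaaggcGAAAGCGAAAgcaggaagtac
PSME2, chr14:24146611-24146663, minus strand: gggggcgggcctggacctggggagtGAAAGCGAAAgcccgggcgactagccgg
PSME1, chr14:24136189-24136218, plus strand: gccctaccgcTTTCGCTTTCccttcgcggt
PSMB8, chr6:32844032-32844061, minus strand: gatctgtggcTTTCGCTTTCacttcctcct
PSMG4, chr6:3258889-3258946, plus strand: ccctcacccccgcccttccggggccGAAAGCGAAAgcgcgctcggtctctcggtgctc
PSMB4, chr1:151399480-151399539, plus strand: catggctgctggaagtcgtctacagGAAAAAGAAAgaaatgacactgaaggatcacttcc
PSMA4, chr15:78540155-78540199, plus strand: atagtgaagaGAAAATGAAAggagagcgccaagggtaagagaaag

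The match began 21 bases before the start site in PSMB10, 28 in PSME2, 33 in PSMG4, 68 in PSMB4 and 240 in PSMA4. It spans the start site in PSMB8 and lies just after it in PSME1. Of the 7 genes, 6 were higher in PC-3 and PSMA4 was lower, beside 30 of 46 tested members and 37% of all genes higher, so nothing is read from that count. No match was found in the PSMB9 window. Searched the same way, the antioxidant response element core, TGANNNNGC, bound by NFE2L1 and NFE2L2, was in 32 of the 51 promoters (62.7%, against 41.8% of all), and CCAAT in 20 (39.2%, against 34.6%). The gamma-activated site of the interferon response, TTCNNNGAA, was in 8 (15.7%, against 7.66%). Its genes included PSMB8 but not PSMB9, PSMB10, PSME1 or PSME2. These are matches of letters, not measured binding.

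In the 19S base, 7 of 9 members were higher in PC-3 and 0 lower, beside 37% and 37.9% of all tested genes. The leaders were the ATPases PSMC6, at 221, 220 and 203 CPM against 95.4, 91.2 and 89.4 CPM (1.2 ± 0.10, adjusted p = 3.18e-05), and PSMC3 (1.00 ± 0.10, adjusted p = 0.000103). PSMD4 (0.72), PSMD2 (0.70), PSMC5 (0.53), PSMC2 (0.47) and PSMD1 (0.34) followed. PSMC2 was lost with the GC and length trend removed (adjusted p = 0.084). PSMD1 was lost there too (0.13, adjusted p = 0.272), with DESeq2 (0.061), and without LNCaP replicate 1 (0.0898) or 3 (0.0995) or PC-3 replicate 2 (0.0825).

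In the lid, 2 of 8 members were higher in PC-3 and 3 lower, beside 37% and 37.9% of all tested genes. PSMD14 rose to 272, 254 and 268 CPM against 132, 127 and 121 CPM (1.05 ± 0.10, adjusted p = 6.31e-05). PSMD3 was lower, at 113, 137 and 118 CPM against 176, 193 and 204 CPM (-0.66 ± 0.11, adjusted p = 0.00138), and so was PSMD6, at 83.9, 92.4 and 117 CPM against 125, 141 and 136 (-0.47 ± 0.14, adjusted p = 0.0182; -0.79 with the GC and length trend removed). PSMD11 was the third lower gene (-0.32 ± 0.10, adjusted p = 0.0242). PSMD12 was higher at 0.68 ± 0.25 (adjusted p = 0.0426), and its groups overlapped.

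Only PSMD14 and PSMD3 of these kept their call without any single library. PSMD6 was lost without LNCaP replicate 2 or 3 or PC-3 replicate 1 or 2 (adjusted p 0.0504 to 0.0827). PSMD11 was lost without LNCaP replicate 2 or 3 or any PC-3 replicate (0.052 to 0.079), and PSMD12 without LNCaP replicate 2 or 3 or PC-3 replicate 1 or 2 (0.114 to 0.127). Over all alternatives the number of called lid genes ran from 2 to 8. The lid sum was 1405, 1419 and 1427 CPM in PC-3 and 1352, 1356 and 1377 CPM in untreated LNCaP, while the core sum was 3861, 3848 and 4554 CPM against 2515, 2629 and 2621 CPM.

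Both PA28 genes were higher in PC-3. PSME1 stood at 167, 171 and 204 CPM against 57.2, 66.2 and 74.6 CPM (1.43 ± 0.14, adjusted p = 8.36e-05), and PSME2 at 98.3, 128 and 144 CPM against 45.0, 48.4 and 45.7 CPM (1.39 ± 0.15, adjusted p = 0.000128). No difference was called for PSME3 (110, 150 and 132 CPM), PSME4 (78.2, 63.7 and 71.5 CPM) or PSMF1 (85.3, 96.2 and 83.3 CPM). Their 95% intervals were -0.91 to 0.22, -0.60 to 0.14 and -0.04 to 0.44. Without LNCaP replicate 3 PSME3 was called lower (-0.56, adjusted p = 0.0259).

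Chaperones were higher in PC-3 in 6 of 7 cases and lower in 0, beside 37% and 37.9% of all tested genes. PSMD5, which holds the base before it joins the core, rose from 10.3, 9.43 and 9.43 CPM to 68.9, 61.8 and 71.4 CPM (2.77 ± 0.11, adjusted p = 1.64e-06). With baicalein at 20 µM it was at 8.99, 9.72 and 9.10 CPM (-0.03 against untreated, 95% interval -0.32 to 0.26). PSMG2 (1.21 ± 0.09), PSMG3 (1.17 ± 0.11), PSMD9 (1.09 ± 0.10), PSMG4 (1.02 ± 0.17) and PSMG1 (0.74 ± 0.10) were also higher, and PSMD10 was not called (0.46, adjusted p = 0.0718).

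Genes of the surrounding pathway were read next. At 10 µM 0 of the genes named below were called with either drug. With baicalein at 20 µM 4 of 10 subunits and bound factors outside the PSM symbols rose and 2 fell. The share of all tested genes with baicalein at 20 µM, 29.4% higher and 27.8% lower, stands beside this count and the baicalein counts of the lists that follow. None is read as particular to its list. AKIRIN2, which brings proteasomes into the nucleus, rose by 1.15 ± 0.12 (log2, adjusted p = 2.91e-06) and the ubiquitin receptor ADRM1 by 1.02 ± 0.14 (adjusted p = 5.48e-05). UBE3C, a ligase bound to the proteasome, was at -0.99 ± 0.10 (adjusted p = 3.55e-06). With genistein at 20 µM 1 of these 10 was called, the core maturation factor POMP (0.48 ± 0.12, adjusted p = 0.0163). Beside this count and the genistein counts that follow stand 8.31% of all tested genes higher and 8.12% lower. None of these is read as particular to its list either.

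In the list on NFE2L1 and its partners, 4 of 8 genes rose and 1 fell with baicalein at 20 µM. MAFF, a small partner of the CNC factors, rose by 4.62 ± 0.16 (adjusted p = 2.92e-10) and MAFK by 1.46 ± 0.14, while NFE2L3 was at -2.26 ± 0.21. With genistein at 20 µM only MAFF was called (1.70 ± 0.15, adjusted p = 1.33e-05). The autophagy receptor SQSTM1 rose with baicalein at 20 µM (2.17 ± 0.22, adjusted p = 3.46e-06) and with genistein at 20 µM (1.18 ± 0.22, adjusted p = 0.00321). The E1 enzyme UBA1 was at -1.04 ± 0.12 with baicalein at 20 µM (adjusted p = 9.15e-06).

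VCP, the ATPase that extracts ubiquitinated proteins, was at -1.09 ± 0.12 with baicalein at 20 µM (adjusted p = 7.6e-06) while 6 of the other members of its list of 10 rose, among them NSFL1C (0.76) and UBXN1 (0.96). With genistein at 20 µM DERL1 (0.36) and FAF1 (0.39) rose. In the COP9 signalosome, a complex built like the lid, 2 of 9 genes rose (COPS3 0.76, COPS5 0.58) and COPS7A fell (-0.79) with baicalein, and 0 were called with genistein.

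Single genes of interferon control and peptide loading were read beside PSMB8 and PSMB9. With baicalein at 20 µM the interferon regulator IRF1 was at 3.61 ± 0.20, the MHC class I activator NLRC5 at 2.88 ± 0.18 and the peptide transporter gene TAP2 at -2.36 ± 0.11. With genistein at 20 µM NLRC5 (2.03 ± 0.18) and IRF1 (1.43 ± 0.19) rose and TAP2 fell (-0.63 ± 0.10). In PC-3 against LNCaP, IRF1 (3.00 ± 0.15) and TAP1 (1.52 ± 0.11) were higher and NLRC5 was lower (-3.08 ± 0.26). The 6 leukocyte markers summed to 0.43 to 0.80 CPM in untreated LNCaP, 0.25 to 2.76 with genistein at 20 µM, 2.04 to 3.15 with baicalein at 20 µM and 0.81 to 1.19 in PC-3. With baicalein at 20 µM they too were thus higher than in untreated LNCaP, with no overlap, while the range overlapped that of genistein at 20 µM. CD14 went from a mean of 0.10 to 1.37 CPM and LYZ from 0.09 to 0.97 CPM there, 2 of the 6 were at 0 in all 3 libraries, and their part in the result was not tested.

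In PC-3, where 37% of all tested genes were higher and 37.9% lower, the other lists also had calls both ways: 3 higher and 5 lower of 10 for the bound factors, among them ECPAS (-1.93 ± 0.13) and the small lid subunit SEM1 (0.90 ± 0.09), 4 and 2 of 8 for the NFE2L1 list, 4 and 3 of 10 for VCP and its cofactors, and 5 and 1 of 9 for the COP9 signalosome. NFE2L3 stood 4.76 ± 0.11 above LNCaP (adjusted p = 3.2e-07), MAFF 3.86 ± 0.14 above and the protease DDI2 at -1.41 ± 0.12.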

How the data were processed

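RNA was measured by poly(A) sequencing in 18 libraries. Values are the authors' deposited counts, whole numbers per gene. The submitters' processing notes list featureCounts 1.6.4, STAR 2.7.6a, fastp and DESeq2 1.20.0, with build GRCh38. The strand setting and the handling of reads that fit several places are not given in the sources used here. The 18 deposited FPKM columns were not used, since their headers name baicalein at 20 µM 6 times, nor were the 13 authors' comparisons.

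Count columns were matched to samples by line, drug, dose and replicate in their headers. Tests were quasi-likelihood F tests in edgeR 4.0.16 (R 4.3.3; TMM, default filter on low counts, robust), with 15 LNCaP libraries in 1 fit and the 6 untreated libraries in another, and Benjamini-Hochberg adjustment over all tested genes. CPM were scaled by TMM over all 18 libraries. Levels per kb use APPRIS principal transcripts of GENCODE 29. DESeq2 1.42.0, other normalization and filters, removal of a GC and length trend, a replicate block, other samples in the fit, and leaving out each library were the alternatives.

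Named were the catalytic, immunoproteasome, tissue-restricted, activator, inhibitor and PSMD14 genes, and per comparison the 3 largest called rises and falls in core, base, lid and the rest; of each list the 3 called genes with the smallest adjusted p. Members and lists were chosen with earlier results of these data known. The fitting was tested on simulated data. Some listed genes, and the counts of their lists, are not reported here.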

Additional observations from a re-analysis of the deposited data

Results flagged for a closer look

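There were 5 members that stood on opposite sides of untreated LNCaP with the 2 flavonoids at 20 µM, and the test of genistein against baicalein called the difference (edgeR, Benjamini-Hochberg adjusted p 0.000107 to 0.00302). For PSMD2 the effect was 0.07 with genistein and -0.87 with baicalein (log2), a difference of 0.94. PSMD1 was at 0.16 and -0.53, a difference of 0.69. PSMB5 was at 0.27 and -0.40, a difference of 0.67. PSME1 was at 0.34 and -0.17, a difference of 0.51, and PSMG2 at -0.06 and 0.41, a difference of -0.46. Of the effects against untreated, those of genistein and that of baicalein on PSME1 did not pass the test.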

How the results depend on the processing

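With genistein at 20 µM the 2 called members became 4 with DESeq2 and with the GC and length trend removed (also with the block added), 1 when only genistein at 20 µM and untreated libraries were fitted, and 0 with RLE size factors, without the filter on low counts, without mitochondrially encoded genes and with the replicate block; leaving out 1 library gave 0 to 1. Over 16 alternatives baicalein at 20 µM gave 15 to 20 called members, the isomers at 20 µM 11 to 17, PC-3 30 to 36 and the 3 comparisons at 10 µM 0. Calls kept in every alternative numbered 12 of 19, 9 of 14 and 27 of 34, and no direction of a called value reversed. All genes called ran from 10 to 129 (main 19) with genistein and 9 to 400 (main 68) with baicalein at 10 µM, 0 to 72 (main 1) between them, and 1661 to 4033 (main 2791) with genistein at 20 µM; the cause was not tested. Not every same-numbered pair deviated together (LNCaP correlations -0.395 to 0.336, 5 of 15 libraries closest to their own number; untreated lines -0.019 to 0.181, 3 of 6), so the block has no known pairing behind it; it changed the calls by at most 2. Depth limits PSMB8 and PSMB9 in LNCaP.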
